A study of Trichosurus vulpecula with 6 samples.

Results

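The genes of the major histocompatibility complex (MHC) class I antigen processing pathway were followed in ear skin of the common brushtail possum, *Trichosurus vulpecula*. The set was a list of 8 genes chosen by their role: B2M, TAP1, TAP2, TAPBP, PSMB8, PSMB9, PDIA3 and CALR. Transcripts assembled in each library were assigned to genes by overlap of their exons, on the same strand, with the gene spans of the RefSeq annotation (assembly mTriVul1.pri). Of the 8 genes, 6 matched a symbol of that annotation, and all 6 were among the 15483 genes that could be tested, out of 17962 genes with an assembled transcript. TAPBP and PSMB8 matched neither a symbol nor a synonym and were not analysed here.

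The skin came as ear punches from 3 black and 3 grey possums, all adult females from a wild population, so coat colour was the one difference that the labels gave between the groups, and they name no treatment. Poly(A)-enriched, strand-specific libraries were sequenced as single-end reads of 120 bp, 1 library per animal. Levels are given as TPM, the abundance of a transcript relative to all transcripts of the library, a measure scaled to transcript length and to library size, summed over the assembled transcripts of a gene. The aligned bases came to 6.47 to 8.51 gigabases in the black libraries and to 4.17 to 10.2 gigabases in the grey ones, and 80.1% to 87.9% of TPM fell in annotated genes. Of 10 keratinocyte markers, 3 (TP63, DSG1 and SFN) had a transcript under their symbol, and their sum was 2171 to 2608 TPM in black skin and 1669 to 2711 TPM in grey skin, while KRT5, KRT14, KRT10, KRT1, KRT15, DSP and PERP gave no value. Black replicate 1 stood apart by its skeletal muscle genes, of which 10 of 12 had a transcript and whose sum ranged from 8.56 to 3479 TPM in black skin and from 9.17 to 11.1 TPM in grey skin. Black replicate 3 had the highest sum of leukocyte genes, at 356 TPM, against 148 and 157 TPM in the other black libraries and 133 to 159 TPM in the grey ones. Grey replicate 3 had the lowest sums of mast cell genes (30.5 TPM, against 155 to 198 TPM in black skin and 200.1 and 237 TPM in the other grey libraries, 4 of 6 genes with a transcript) and of fibroblast genes (996 TPM, against 2401 to 2811 TPM in black skin and 2424 and 3758 TPM in the other grey libraries).

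MHC class I molecules show fragments of a cell's own proteins to cytotoxic T cells, and nearly all nucleated cells of mammals carry them. Proteasomes cut the proteins, a transporter of the endoplasmic reticulum membrane moves the peptides inside, and chaperones hold the class I heavy chain with its light chain until a peptide is bound. In human and mouse cells interferons raise many of these genes together, including an alternative set of catalytic proteasome subunits, and skin is a tissue in which keratinocytes, dendritic cells and lymphocytes all use the pathway.

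Among the 6 genes, the light chain B2M was the most abundant and the transporter subunits were the least abundant, in black and in grey skin alike. B2M and PSMB9 were higher in all 3 black possums than in any grey possum, by 1.60-fold and 1.75-fold of the group means. CALR, PDIA3, TAP1 and TAP2 overlapped between the colours. No gene of the set passed the test across all genes: limma on log2(TPM + 1) with Benjamini-Hochberg adjustment gave an adjusted p of 1.00 for each of the 6, against 0.0194% of all genes tested called (3 of 15483, of which 2 were higher and 1 was lower in black skin). At an unadjusted p under 0.05 there were 2 of the 6 genes and 346 of all genes (2.23%). Colours that did not overlap, with black higher, were found in 2 of the 6 genes and in 4.0% of all genes (620 genes), and colours that did not overlap with black lower in 0 of the 6 and in 2.31% (357 genes).

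**Figure D1:**
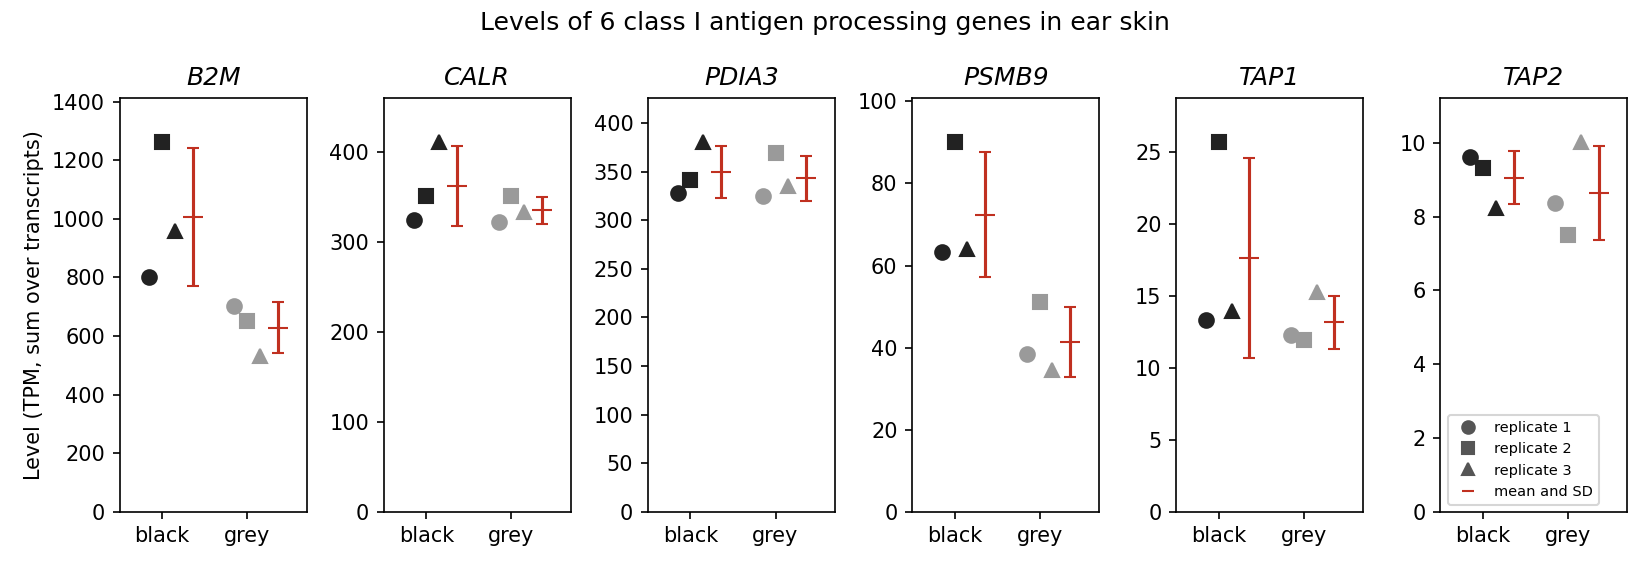
Level of each gene in TPM (vertical axis, from 0, on its own scale per gene) in black (left) and grey (right) ear skin, with 1 point per possum and the mean and SD in red (n = 3 per colour). For B2M and PSMB9 every black point lies above every grey point, with 801 to 1261 TPM against 532 to 703 TPM for B2M, while the colours overlap for the other 4 genes.

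The genes spanned a wide range of levels. The fold between B2M and CALR, taken as the mean log2 ratio of TPM within a library, was 2.26, and B2M was higher in 6 of 6 libraries. PDIA3 exceeded PSMB9 by 6.40-fold, PSMB9 exceeded TAP1 by 3.64-fold and TAP1 exceeded TAP2 by 1.69-fold, each in 6 of 6 libraries. An exact 2-sided sign-flip permutation test gave p = 0.031 for each of these 4 steps, which is the smallest value that 6 libraries allow. The pairs of neighbours were taken from the mean levels of these same libraries, and p was not adjusted over the steps. With the same sign in all 6 libraries, this test gives that value whatever the size or spread of the step. These p-values therefore say only that the sign was the same in each library and are no independent test of the order. CALR and PDIA3 were the one pair of neighbours that did not differ beyond their spread (1.01-fold, CALR higher in 2 of 6 libraries, exact sign-flip permutation p = 0.75). In these libraries the order by TPM was thus B2M, then CALR and PDIA3 together, then PSMB9, TAP1 and TAP2. These folds rest on the assembled transcript lengths. With 1 exon length per gene, the joint length of all exons assembled in any library, PDIA3 exceeded PSMB9 by 23.3-fold (12.8 to 37.9 times over the libraries) and PSMB9 exceeded TAP1 by 1.503-fold (1.00 to 1.98 times). This length was 3111 nt for PSMB9, whose main transcript had 760 to 872 nt. The order of the genes held on that scale, but PSMB9 and TAP1 were nearly equal in grey replicates 1 and 3.

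B2M encodes β2-microglobulin, the invariant light chain that pairs with every classical class I heavy chain. It lies on chromosome 8 (mTriVul1.pri, 199370031 to 199383485, forward strand). All 6 libraries assembled it as 1 transcript of 4 exons with a single chain of introns, supported by the equivalent of 15017 to 56996 reads. Its level was 801, 1261 and 958 TPM in black possums, against 703, 651 and 532 TPM in grey possums (1007 ± 234 and 629 ± 87.7 TPM, SD, n = 3 each). Black replicate 2 was the highest library and grey replicate 3 the lowest, and the colours did not overlap. On the log2 scale B2M differed by 0.66 ± 0.22 (SE, 95% confidence interval 0.14 to 1.19, limma adjusted p = 1.00). An exact 2-sided permutation test of TPM gave p = 0.1, the smallest value possible with 3 animals against 3. With quantile normalisation of the libraries, an alternative scaling, the colours overlapped.

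The proteasome subunit PSMB9 is known in human and mouse as a catalytic subunit of the immunoproteasome, where it takes the place of PSMB6. It lies on chromosome 7 (269852219 to 269856571, forward strand). PSMB9 was at 63.2, 90.0 and 63.9 TPM in black possums, against 38.6, 51.1 and 34.5 TPM in grey possums (72.4 ± 15.3 and 41.4 ± 8.63 TPM, SD, n = 3 each). The lowest black library lay above the highest grey library, and black replicate 2 was again the highest. The log2 fold change was 0.79 ± 0.22 (SE, 95% confidence interval 0.27 to 1.31, limma adjusted p = 1.00), the largest of the 6 genes, and the exact permutation p was 0.1. The difference kept its direction, and the colours stayed apart, without any 1 of the libraries and under each of the 5 other scalings, gene lengths and assignments tried. With a library left out, 7.36% to 10.6% of all genes did not overlap with black higher, against 4.0% with all libraries.

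PSMB9 was also the gene with the most varied transcripts. Its assemblies held 12 different chains of introns, 3 to 8 transcripts per library, whereas B2M and PDIA3 each had 1 chain. The main form of 6 exons was found in 6 of 6 libraries and carried 64.0% of PSMB9 TPM. A second form, also assembled in every library, differed in exon 2, which was 83 nt long in place of 68 nt because it began 15 nt further upstream (269854502 in place of 269854517, both ending at 269854584). The upstream start made up 24.8%, 15.7% and 18.2% of the TPM of both forms in black possums, against 33.4%, 19.5% and 19.0% in grey possums. The colours overlapped, with means of 19.6 ± 4.71% and 24.0 ± 8.15% (SD, n = 3 each, exact 2-sided permutation p = 0.5). Another form joined exon 1 to exon 3 across an intron of 2651 nt. It was listed at 5.47, 13.8 and 0 TPM in black possums and at 9.73, 3.05 and 2.05 TPM in grey possums. The main form alone stood at 40.9, 55.4 and 46.8 TPM in black possums, against 19.2, 31.8 and 24.3 TPM in grey possums, so that the colours did not overlap in this form either. These shares rest on how the assembler divided the reads, and grey replicate 1, where the main form had its lowest share (49.8%), was the shallowest library with about 516 reads on the gene.

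The constitutive subunit PSMB6 was at 162, 141 and 156 TPM in black possums, against 137, 139 and 152 TPM in grey possums, so its colours overlapped (log2 fold change 0.10, 95% confidence interval −0.23 to 0.43). The ratio of PSMB9 to PSMB6 within a library does not depend on library scaling. It was 0.391, 0.637 and 0.411 in black possums and 0.282, 0.368 and 0.227 in grey possums. All 3 black values were above all 3 grey values, and the mean log2 ratio was −1.10 ± 0.39 in black and −1.80 ± 0.35 in grey skin (SD, n = 3 each), a difference of 0.71. PSMB10, the immunoproteasome subunit that takes the place of PSMB7 in human and mouse, was also higher in all 3 black possums than in any grey possum. It was highest in black replicate 1, with 32.9, 24.5 and 20.7 TPM in black possums, against 17.2, 16.7 and 7.45 TPM in grey possums (log2 fold change 0.93, 95% confidence interval 0.12 to 1.75, limma adjusted p = 1.00). Its ratio to PSMB7 was 0.097, 0.078 and 0.071 in black possums and 0.061, 0.060 and 0.024 in grey possums, a difference of 0.87 on the log2 scale that was 0.42 without grey replicate 3. Neither ratio passed the test: for each the exact 2-sided permutation p was 0.1, the smallest value that 3 against 3 can give, and 0.15 when adjusted over the 3 ratios compared. PSMB5, the constitutive subunit in the place that PSMB8 takes, was at 147 to 219 TPM in black and 138 to 186 TPM in grey skin.

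**Figure D2:**
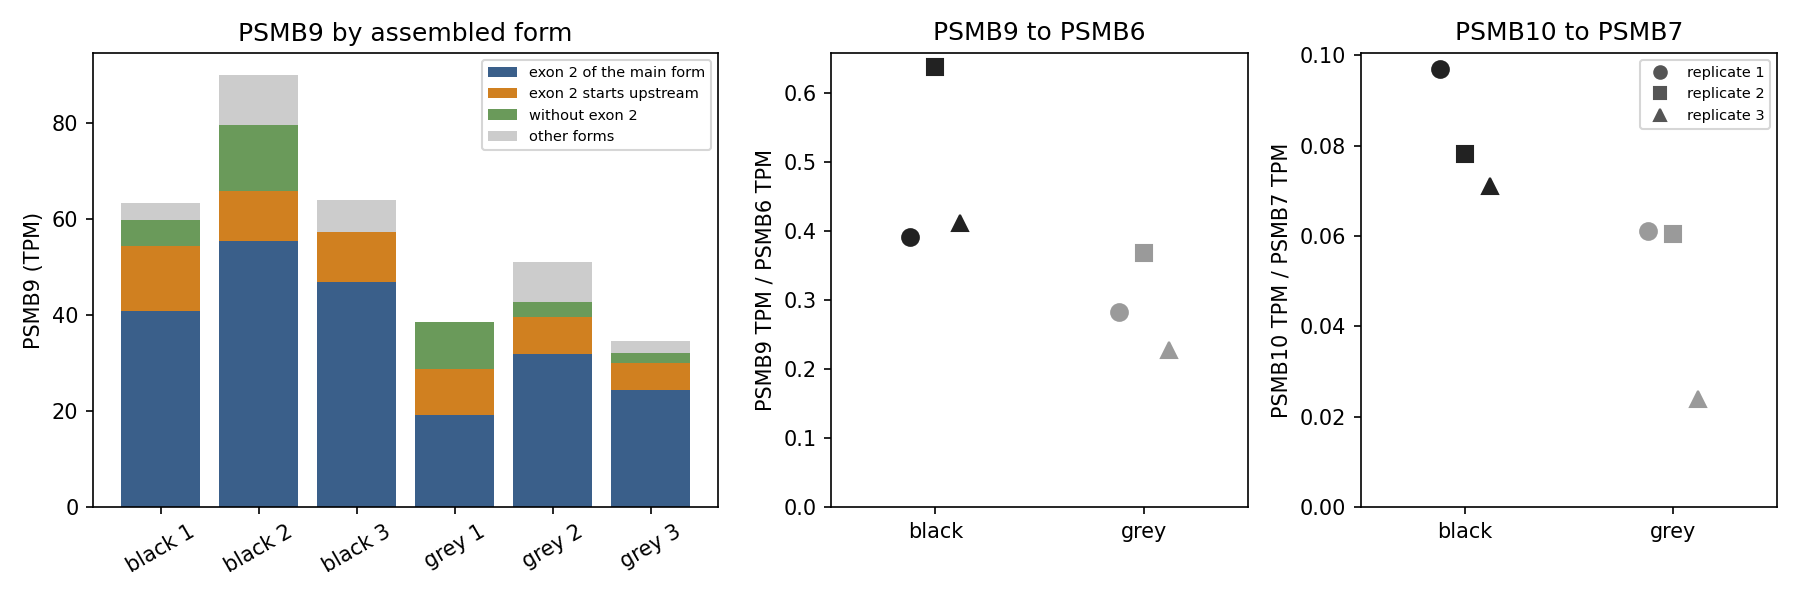
Left, PSMB9 TPM of each library (bars from 0), divided by assembled form; middle and right, ratio of an immunoproteasome subunit to its constitutive counterpart in TPM, with 1 point per possum, black left of grey. Black bars reach 63.2 to 90.0 TPM and grey bars 34.5 to 51.1 TPM, and in both ratios the 3 black points lie above the 3 grey points.

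TAP1 and TAP2 encode the subunits that together form the peptide transporter of the endoplasmic reticulum. Both lie on the reverse strand of chromosome 7, TAP2 at 269744250 to 269758148 and TAP1 at 269840439 to 269851967. TAP1 was at 13.3, 25.6 and 13.9 TPM in black possums, against 12.3, 11.9 and 15.3 TPM in grey possums (17.6 ± 6.95 and 13.2 ± 1.83 TPM, SD, n = 3 each). Black replicate 2 lay well above the other 5 libraries, which overlapped between the colours. The log2 fold change of TAP1 was 0.34 ± 0.28 (SE, 95% confidence interval −0.32 to 1.00, limma adjusted p = 1.00), and it was 0.05 without black replicate 2. The main transcript of TAP1 had 11 exons in every library, but in black replicate 2 and grey replicate 3 it was assembled shorter, at 2465 and 2464 nt against 3037 to 3139 nt in the other 4 libraries, with exon 1 beginning further downstream.

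A shorter assembled transcript gives a higher TPM for the same number of reads, so TAP1 was also computed with 1 fixed exon length per gene. On that scale, set to the same total per library as the TPM of annotated genes, TAP1 was at 14.2, 22.5 and 15.3 in black possums and at 14.0, 13.2 and 13.2 in grey possums. The colours then no longer overlapped, and black replicate 2 remained the highest library. On that scale 3.84% of all genes did not overlap with black higher.

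TAP2 was the least abundant and was at 9.62, 9.30 and 8.23 TPM in black possums, against 8.37, 7.51 and 10.01 TPM in grey possums (9.05 ± 0.73 and 8.63 ± 1.27 TPM, SD, n = 3 each). The colours overlapped, and the highest library was grey replicate 3. TAP2 had a log2 fold change of 0.07 ± 0.19 (SE, 95% confidence interval −0.38 to 0.51, limma adjusted p = 1.00). In grey replicate 3 TAP2 was assembled in 6 pieces, of which the main one had 10 exons and 1980 nt, whereas the main transcript of the other 5 libraries had 13 exons and 3804 to 4400 nt. With 1 fixed exon length per gene TAP2 stood at 11.7, 12.3 and 9.16 in black possums and at 10.03, 9.46 and 5.68 in grey possums, so grey replicate 3 was then the lowest library and not the highest. Its log2 fold change on that scale was 0.38. The order of TAP2 among the libraries therefore depends on the length that the coverage is divided by. A pseudogene of the annotation spans the same stretch as TAP2, and the log2 fold change was −0.16 when transcripts were assigned by the number of shared exon bases alone.

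The ratio of TAP1 to TAP2 was 1.38, 2.76 and 1.69 in black possums and 1.47, 1.59 and 1.52 in grey possums. Grey possums lay within a narrow range that black possums enclosed, and the difference of 0.29 on the log2 scale did not pass an exact 2-sided permutation test (p = 0.5). With 1 exon length per gene this difference was −0.09 (exact permutation p = 0.8).

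TAP1 and PSMB9 are neighbours that read away from each other, with 251 bp between their annotated starts. The assembled transcripts left 148 to 876 bp between both genes, and the widest gap was in black replicate 2, where TAP1 was assembled in the shorter form. PSMB9 exceeded TAP1 by 4.74, 3.51 and 4.59 times in black possums and by 3.13, 4.29 and 2.26 times in grey possums, so the ratio differed among libraries although the starts are close. The TPM ratio is affected by the shorter TAP1 of black replicate 2 and grey replicate 3. With 1 exon length per gene it was 1.00 to 1.98 over the libraries. TAP2 lay 82290 bp from TAP1. The tested protein-coding gene between them, LOC118856804, which carries no name in the sources used here, was at 19.6, 15.5 and 14.6 TPM in black possums, against 9.58, 7.47 and 3.62 TPM in grey possums. Its colours did not overlap either (log2 fold change 1.23 ± 0.33, SE, limma adjusted p = 1.00). On the other side of PSMB9, LOC118856919 was at 121, 199 and 92.2 TPM in black possums, against 57.9, 92.1 and 74.6 TPM in grey possums, with black replicate 3 just above grey replicate 2. LOC118857039, on the far side of TAP2, was at 10.5, 13.0 and 5.67 TPM in black possums, against 6.47, 3.99 and 3.03 TPM in grey possums, and its colours overlapped. These 3 neighbours were taken from the tested protein-coding genes alone and were named after their values were seen.

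**Figure D3:**
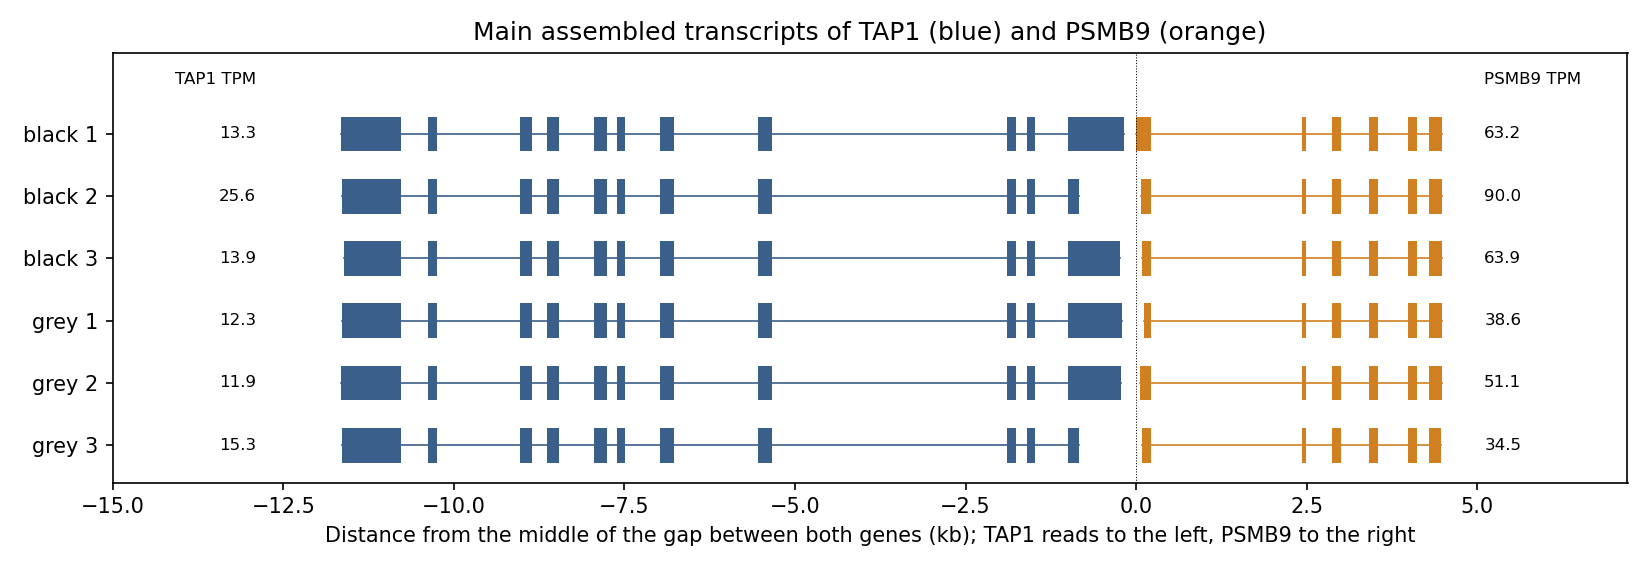
Exons (boxes) and introns (lines) of the transcript of highest TPM for TAP1 (blue) and PSMB9 (orange) in each library, by distance in kb from the middle of the gap between both genes, with the TPM of each gene at the sides. TAP1 begins further from the gap in black replicate 2 and grey replicate 3 than in the other 4 libraries, while the later exons of both genes line up in all 6.

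Calreticulin (CALR) and PDIA3, also called ERp57, belong to the peptide loading complex and also fold many other glycoproteins, CALR as a lectin chaperone and PDIA3 as a thiol oxidoreductase. CALR lies on the reverse strand of chromosome 1 (75763874 to 75768342). It was at 324, 351 and 411 TPM in black possums, against 322, 351 and 333 TPM in grey possums (362 ± 44.5 and 335 ± 14.8 TPM, SD, n = 3 each). The log2 fold change of CALR was 0.10 ± 0.15 (SE, 95% confidence interval −0.26 to 0.47, limma adjusted p = 1.00). The main transcript of 9 exons carried 95.8% of its TPM, and a form of 10 exons was assembled in 3 of the 6 libraries.

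PDIA3 lies on the forward strand of chromosome 8 (198407255 to 198427226), 942804 bp from B2M, and was assembled as 1 transcript of 13 exons in every library. It was at 328, 341 and 380 TPM in black possums, against 325, 369 and 335 TPM in grey possums (350 ± 27.0 and 343 ± 23.3 TPM, SD, n = 3 each). The colours overlapped, with black replicate 3 highest as for CALR. PDIA3 had a log2 fold change of 0.03 ± 0.15 (SE, 95% confidence interval −0.32 to 0.37, limma adjusted p = 1.00). Its sign turned to −0.01 with median-ratio scaling and to −0.07 with quantile normalisation. PDIA3 and CALR were among the steadiest genes of the skin: their SD within a coat colour, on the log2 scale, was smaller than that of all but 3.64% and 7.49% of the genes tested. The same share was 11.7% for TAP2, 39.9% for B2M, 42.1% for PSMB9 and 58.9% for TAP1. These shares were taken over genes of all levels. PDIA3 and CALR each had a higher mean TPM than 97.9% of the genes tested, and spread was not compared among genes of like level.

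All 6 genes had a log2 fold change above 0, as did 56.8% of all genes tested, and their median was 0.22 beside 0.04 for all genes. Leaving out black replicate 2 gave a median of 0.088 for the 6 genes and leaving out black replicate 1 one of 0.34. Scaling moved this count, since PDIA3 was below 0 under the scalings named above. Of a wider list of 47 genes of the pathway (other proteasome subunits and their activators, transport and trimming of peptides, folding of glycoproteins, and transcription factors of the class I genes), 42 were tested. Of these 0 were called by limma, 1 had an unadjusted p under 0.05 (PSMB10), 31 had a log2 fold change above 0, and the median was 0.10. Colours that did not overlap were found for 3 of the 42, PSMB10, TAPBPL and PSMB4, with black higher in each. Of all genes tested, 4.0% did not overlap with black higher, and 2.23% had an unadjusted p under 0.05 by limma. TAPBPL, a relative of tapasin that edits the bound peptide in human cells, was at 4.76, 4.26 and 3.98 TPM in black possums, against 2.71, 3.46 and 1.94 TPM in grey possums (log2 fold change 0.54, 95% confidence interval −0.06 to 1.15). NLRC5, the transactivator of class I genes in human and mouse, was at 3.54 to 6.74 TPM in black and 2.90 to 6.49 TPM in grey skin and overlapped, as did the trimming peptidase ERAP1 at 19.8 to 25.1 and 11.1 to 22.3 TPM. ERAP2, LNPEP, POMP, RFXAP and BCAP31 gave no value here.

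**Figure D4:**
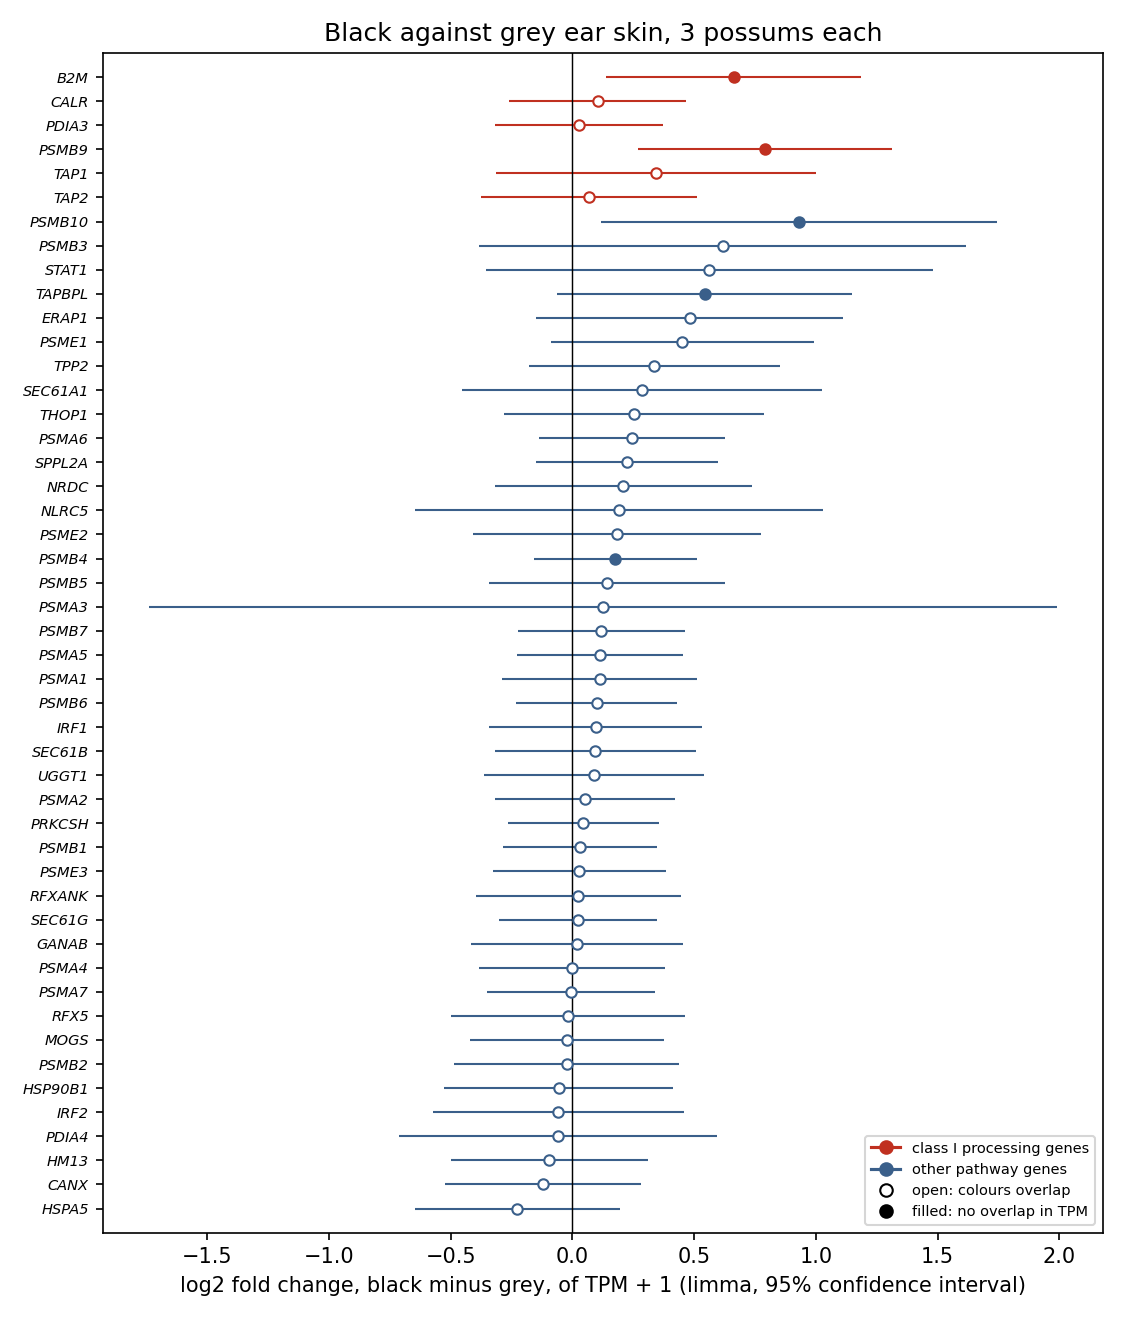
Log2 fold change of black against grey skin on the log2(TPM + 1) scale with its 95% confidence interval (limma, n = 3 per colour), for the 6 genes (red) and 42 other genes of the pathway (blue, sorted), with filled points where the colours do not overlap in TPM. The intervals of B2M, PSMB9 and PSMB10 lie above 0, and all other intervals include 0.

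Co-variation was measured over the 6 libraries as the Pearson r of log2(TPM + 1) for the 15 pairs of genes, each with an exact permutation test of the pairings and Benjamini-Hochberg adjustment over the 15 pairs. The median r was 0.28, beside 0.01 for all pairs of genes tested, and 10 of the 15 were positive. With each colour centred on its own mean the median was 0.09. CALR and PDIA3 varied most closely in rank. Their r was 0.89 (permutation p = 0.0014, the smallest possible, adjusted p = 0.021) and Spearman's rho was 1 (permutation p = 0.0028, adjusted p = 0.042), so the 6 libraries had the same order in both genes. Their r was 0.78 without black replicate 3 and grey replicate 1, the libraries farthest from the median of CALR, and 0.93 within colours.

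B2M and PSMB9 had an r of 0.93 (permutation p = 0.0069, adjusted p = 0.052) and a rho of 0.94 (permutation p = 0.017, adjusted p = 0.13), which did not pass after adjustment. The r of this pair was 0.75 within colours and 0.69 without black replicate 2 and grey replicate 3, and 0.5% of all gene pairs had a higher r. TAP1 had an r of 0.69 with B2M (permutation p = 0.14, adjusted p = 0.60, rho 0.43, permutation p = 0.42), and of 0.98 without black replicate 2 and grey replicate 3. These libraries were left out as the farthest from the median of B2M, and few then remain. TAP1 was also assembled shorter in them, and the part of this in the r was not tested. With its neighbour PSMB9 the r of TAP1 was 0.63 (permutation p = 0.19, adjusted p = 0.60, rho 0.37, permutation p = 0.50), and 0.75 without the same libraries. Among the 528 pairs of protein-coding genes that, like TAP1 and PSMB9, read away from each other with starts within 1000 bp, the median r was 0.08 and 15.5% reached that of TAP1 and PSMB9. TAP2 showed an r of −0.00 with B2M and with PSMB9 (rho −0.14 and −0.26, permutation p = 0.99 for both r, adjusted p = 0.99), and of 0.39 and 0.35 without black replicate 2 and grey replicate 3. With 1 exon length per gene the r of TAP2 with B2M was 0.75 and with PSMB9 0.74, and the median over the 15 pairs was 0.52. On that scale the r of TAP1 was 0.86 with B2M and 0.76 with PSMB9. The r of CALR with PDIA3 was then 0.82 and that of B2M with PSMB9 0.90. The co-variation of TAP2, and to a lesser degree that of TAP1, thus depends on how the length of the transcript is taken. So does the order of TAP2 among the libraries.

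**Figure D5:**
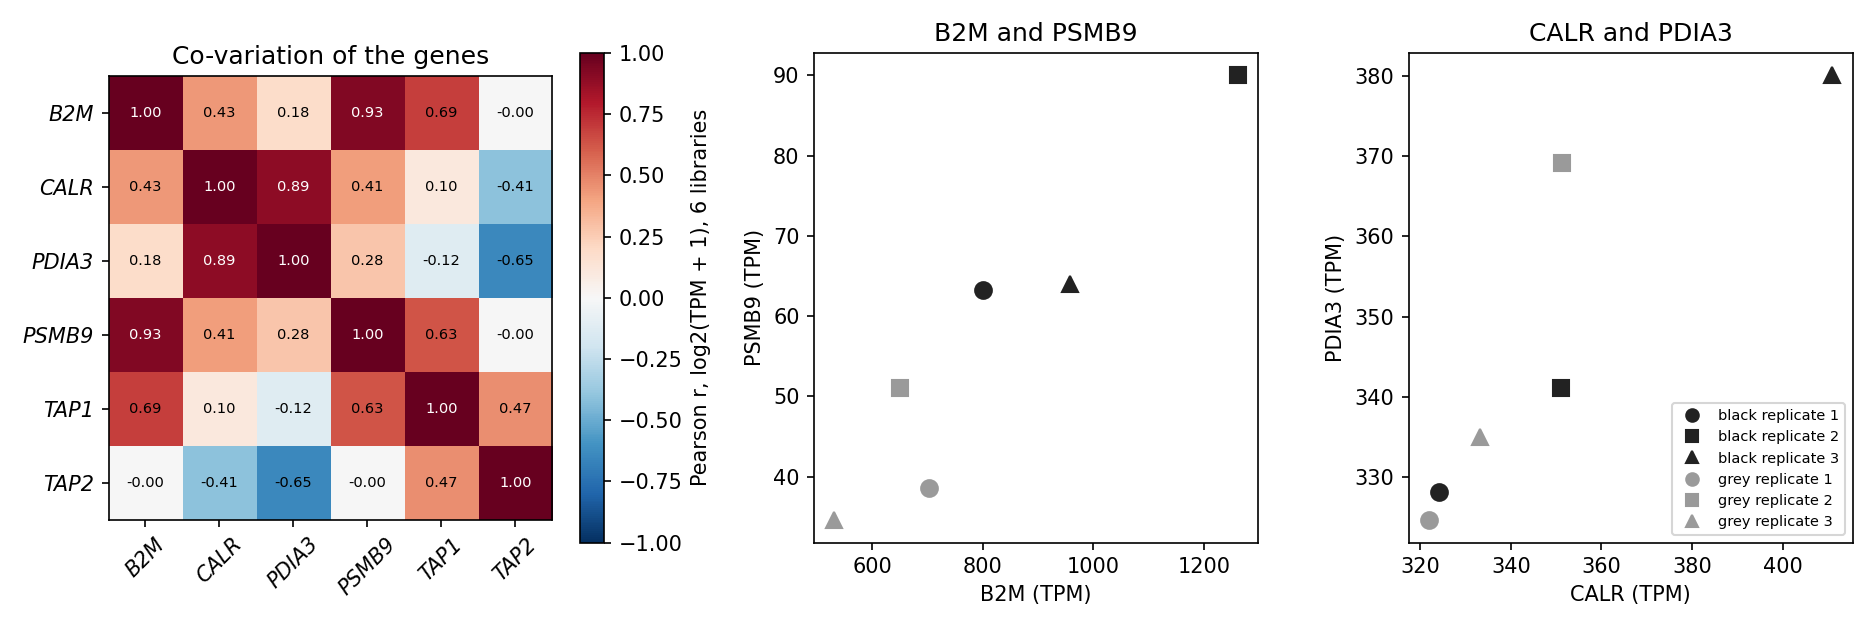
Left, Pearson r of log2(TPM + 1) over the 6 libraries for each pair of genes; middle and right, TPM of B2M against PSMB9 and of CALR against PDIA3, with 1 point per library. B2M and PSMB9 (r = 0.93) spread from 532 to 1261 TPM of B2M with black libraries at the upper end, whereas CALR and PDIA3 (r = 0.89) vary over a narrow range in which the colours mix.

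An interferon response list had 21 of 45 genes tested, with 0 called by limma, 2 whose colours did not overlap (IFI35 and XAF1, black higher), and 17 with a log2 fold change above 0 (median 0.56). Of all genes tested, 4.0% did not overlap with black higher and 56.8% had a log2 fold change above 0 (median 0.04). The summed level of the interferon list was 273, 277 and 141 TPM in black possums and 189, 131 and 96.9 TPM in grey possums, so the colours overlapped. ISG15, a ubiquitin-like protein that interferon induces, was at 44.3, 37.9 and 4.24 TPM in black possums, against 14.9, 2.72 and 1.15 TPM in grey possums. Its colours overlapped, since black replicate 3 lay below grey replicate 1. TRIM25 and STAT2 had a higher mean over all 6 libraries (20.6 and 18.9 TPM against 17.5 TPM for ISG15), but not over the black libraries. Both also overlapped between the colours, at 19.9 to 25.2 and 16.5 to 20.7 TPM in black skin and at 18.4 to 20.1 and 16.4 to 21.3 TPM in grey skin.

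B2M had an r of 0.71 with the mean level of the interferon list (rho 0.83, permutation p = 0.12 and 0.058). This r was 0.50 within colours, and 0.06 without black replicate 2 and grey replicate 3, the libraries farthest from the median of the list. PSMB9 had an r of 0.62 with the interferon list (rho 0.71, permutation p = 0.20 and 0.14). Its r was 0.30 within colours and −0.12 without the same libraries. Few libraries then remain, so these r do not show what either relation rests on. Of 18 relations between the 6 genes and the interferon, leukocyte and endoplasmic reticulum chaperone lists, 0 passed after adjustment. The leukocyte list had 8 of 9 genes tested. Its log2 fold changes were all above 0 (median 0.48), beside 56.8% of all genes (median 0.04). CALR had an r of 0.81 with it (rho −0.03, permutation p = 0.16 and 1) that turned to −0.73 without black replicate 3 and grey replicate 2. B2M had an r of 0.35 with the leukocyte list (rho 0.60, permutation p = 0.46 and 0.24) and of 0.03 without the same libraries, and PSMB9 had an r of 0.23 (rho 0.43, permutation p = 0.67 and 0.42) and of −0.01 without them. Without black replicate 3 the log2 fold changes of B2M and PSMB9 were 0.69 and 0.87, and without grey replicate 3 they were 0.55 and 0.67.

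The sums of other cell types were, in black and in grey skin, 591 to 1599 and 488 to 808 TPM for macrophages and dendritic cells (12 of 13 genes with a transcript), 23.5 to 50.2 and 29.0 to 43.0 TPM for T and NK cells (11 of 15), and 2401 to 2811 and 996 to 3758 TPM for fibroblasts (6 of 7). Single genes carry much of some sums. CD74, of the macrophage and dendritic cell list, was at 195 to 790 TPM in black and 79.2 to 317 TPM in grey skin. CD247, of the T and NK cell list, was at 1.55 to 2.21 TPM in black and 2.25 to 19.1 TPM in grey skin. In whole skin, fewer cells of a type and less RNA per cell cannot be told apart. The part of interferon response, leukocytes, mast cells, fibroblasts or muscle in the levels of the 6 genes was not tested beyond the values given here. Of the 6 relations with the aligned bases of the library, 0 passed, with r between −0.19 for B2M and 0.46 for TAP2 (rho −0.26 and 0.49, permutation p = 0.73 and 0.37 for r, adjusted p = 0.96 for both). Without grey replicates 1 and 3, the libraries of lowest and highest depth, these r were −0.01 and 0.04.

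The genes most like each of the 6 were taken from 9491 named protein-coding genes whose mean was 5 TPM or more, by Pearson r of log2(TPM + 1) over the 6 libraries, as a description. For B2M they were MEAK7 (r = 0.97), FAAP100 and TIMM21, and for PSMB9 they were PGAP2 (r = 0.99), SERPINB7 and EPN2. For TAP1 they were PTPMT1 (r = 0.98), TPT1 and EXOSC4, and for TAP2 they were RPL32 (r = 0.98), LAMB3 and DDIT3. For CALR they were PEX13 (r = 0.99), PAQR4 and TMEM101, and for PDIA3 they included CDK2 (r = 0.99) and LIG1. None of the genes named here belonged to the pathway lists, except DDIT3, which is in the chaperone list.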

How the data were processed

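RNA from ear punches of 3 black and 3 grey possums (250 ng per library) was sequenced. The authors trimmed reads with Trim Galore (v. 0.6.10, Phred score below 20), mapped them to the possum genome with HISAT2 (v. 2.2.1), removed amplicon reads that had entered through a reused index and assembled every library on its own with StringTie (v. 2.2.0). The deposited values are coverage, FPKM and TPM per assembled transcript, without counts of reads, which is why tests for counts were left aside. Depth is the aligned bases, obtained by dividing coverage by FPKM, and reads are coverage bases divided by 120 bp.

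The RefSeq table gave gene spans without strand or exons, and these were inferred from assembled transcripts that matched a span (0.5 of the joint span shared, or 80% inside). Each transcript went to the gene on its strand with shared exon bases. Where a second gene shared at least 0.5 of the most shared bases, the gene whose span matched best was taken. Otherwise the name in the file was used. Of 274079 transcripts, 232206 were assigned. Fold changes are from limma (v. 3.58.1, R v. 4.3.3, mean-variance trend) on log2(TPM + 1) for genes whose mean over the 6 libraries was 1 TPM or more, with a Benjamini-Hochberg threshold of 0.05, and this scale understates changes of low genes. Single values were compared by exact permutation. The fit was tested on simulated data.

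The genes and lists were chosen with earlier results of these data known. Named genes are the 8 listed genes, PSMB5, PSMB6, PSMB7 and PSMB10, pathway genes past the threshold or the 3 with the largest change whose colours do not overlap, the 3 most like each gene (1 of them is not reported here), and the 3 most abundant interferon genes. Neighbours, markers, NLRC5, ERAP1, IFI35 and XAF1 were named after their values were seen. Class I heavy chains could not be selected and are not analysed here. Labels do not say more of the replicates than that they are separate animals of a colour. Alternatives were other pseudocounts (0.1 and 5), filters, variance models, scalings, transcript sets, exon lengths, a replicate block and leaving out each library. Assignment by most shared bases, the overlap counts under each setting, the order of levels with 1 exon length and the relation to depth were added after seeing the data.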

Additional observations from a re-analysis of the deposited data

How the results depend on the processing

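Under all 18 alternatives 0 of the 6 genes were called, and the limma adjusted p of each stayed between 0.99 and 1.00. B2M and PSMB9 kept their direction in every one (log2 fold change 0.49 to 0.81 and 0.63 to 0.95), as did CALR (0.01 to 0.18) and TAP1 (0.05 to 0.50). The count of all genes called, 3, was 1 when the mean had to reach 5 TPM, 6 with 1 exon length per gene, 0 with the replicate block, and 0 to 3 with a library left out. The log2 fold change of PDIA3, 0.03, was -0.011 with median-ratio scaling, -0.069 with quantile normalisation and -0.033 to 0.082 with a library left out. That of TAP2, 0.07, was 0.38 with 1 exon length per gene, -0.16 with assignment by most shared bases and -0.017 to 0.17 with a library left out. The median log2 fold change of the 6 genes, 0.22, was 0.35 with 1 exon length per gene and 0.088 to 0.34 with a library left out. The median r over pairs, 0.28, was 0.091 with colours centred, -0.027 with quantile normalisation, 0.52 with 1 exon length per gene and 0.12 to 0.41 with a library left out. The difference in log2 ratio of TAP1 to TAP2, 0.29, was -0.093 with 1 exon length per gene, and 0.0036 to 0.50 with a library left out. That of PSMB9 to PSMB6, 0.71, was 0.48 to 0.89 and that of PSMB10 to PSMB7, 0.87, was 0.42 (without grey replicate 3) to 1.10 with a library left out. Genes whose colours do not overlap numbered 1 (PSMB9) with quantile normalisation, where 2.91% of all genes did not overlap with black higher. They numbered 3 (TAP1 added) with 1 exon length per gene (3.84% of all genes) and without grey replicate 3 (10.1% of all genes). With fewer libraries colours separate more easily, so the last count is not a stronger result. The cause of these shifts was not tested. Replicate numbers in the labels are shared by the colours, but same-numbered libraries did not deviate together (correlations -0.02, 0.01 and -0.05). With 3 libraries per colour these values cannot show whether animals were matched, and the labels state no pairing. The ratio of PSMB8 to PSMB5 was not run, since PSMB8 was not matched. Few reads lie behind the transcript forms of PSMB9 (516 to 3028), TAP1 (681 to 2377) and TAP2 (571 to 1518).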
